A study of Homo sapiens with 8 samples.

Results

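The genes described here encode the MHC class I antigen presentation machinery: HLA-B, HLA-C, HLA-E and HLA-F (heavy chains), B2M (the light chain), TAP1, TAP2 and TAPBP (peptide loading) and NLRC5 (a transcriptional regulator of the others). These 9 genes were chosen by name, all 9 were found among the 54174 gene symbols of the deposited table, and all 9 had a value in each of the 8 libraries. The RNA was that of 143B cells, a human osteosarcoma line in long use, taken 48 h after a transient plasmid transfection. The control group of 4 libraries had received the vector plasmid (genotype control) and the other 4 had received the NELL1KO plasmid (genotype NELL1 knockout). Both groups were therefore transfected cultures with no clonal selection described, and the share of edited cells in them is not given in the sources used here. The labels do not say whether the 4 replicates of a group were separate cultures beyond calling them biological, so p-values measure the spread between these libraries.

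MHC class I molecules carry short peptides from inside the cell to its surface, where CD8+ T cells and natural killer cells read them. The proteasome cuts the peptides, the TAP1-TAP2 transporter moves them into the endoplasmic reticulum, and tapasin, the product of TAPBP, holds an empty heavy chain with its beta-2 microglobulin light chain next to that transporter until a peptide is bound. The genes share promoter elements read by NLRC5 with the RFX complex, by interferon regulatory factors and by NF-kappaB, and tumour cells often carry low levels of one or more of them.

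Of the 9 genes, 1 passed the test over all 8 libraries: TAPBP was 1.71-fold lower in the knockout libraries. The heavy chain genes HLA-B, HLA-C and HLA-E had lower means and B2M a higher mean in the knockout libraries, none of which passed the test over all libraries. TAP2 lay above every control in knockout libraries 1-2 and below every control in 3-4, and TAP1 overlapped the controls in the first pair and lay below them in the other. Of the 9 genes, 7 had both knockout libraries 3 and 4 below every control, and 2 had both knockout libraries 1 and 2 below every control. Among all 9016 tested genes, which leave out HLA-F and NLRC5, those shares were 28.8% and 27.7%. The test was limma on the deposited log2 values of genes with a mean of at least 1, with Benjamini-Hochberg adjustment over all of them, and it covered 7 of the 9 genes, since HLA-F and NLRC5 lay below that mean. It called 13.1% of all tested genes (7.02% higher and 6.1% lower in the knockouts) and 14.3% of the 7, so the share of called genes among them was near the background. In RNA of whole cultures, fewer cells with a transcript and less transcript per cell cannot be told apart.

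**Figure D1:**
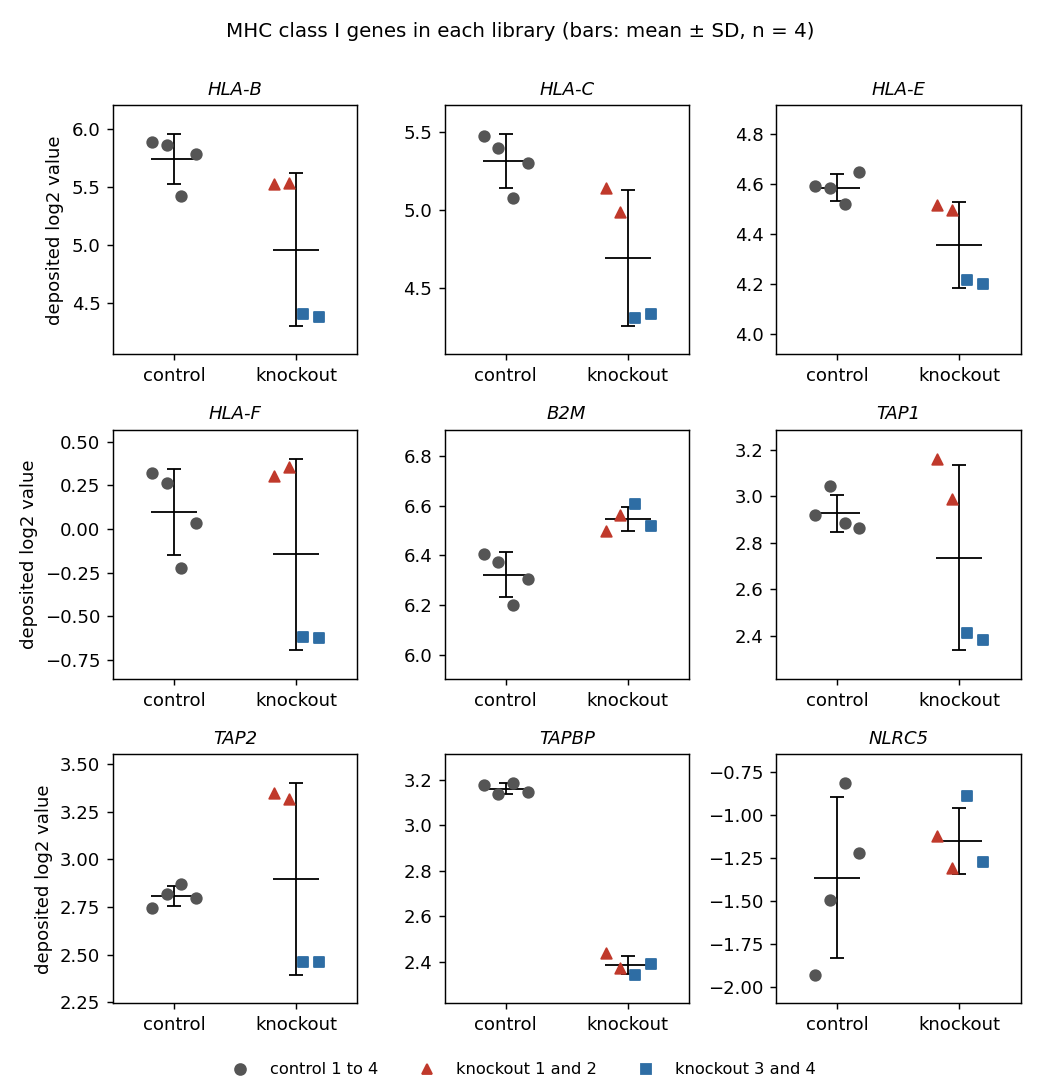
Deposited log2 value (vertical axis, its own range in each panel, spanning at least 1 unit) of the 9 genes in the 4 control and 4 knockout libraries, with the mean and SD of each group. TAPBP separates all knockout from all control libraries with little spread, whereas HLA-B, HLA-C, HLA-F, TAP1 and TAP2 split knockout libraries 1-2 from 3-4.

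The targeted gene and the libraries were checked first. NELL1 was -6.97, -6.97, -4.53 and -5.00 on the log2 scale in controls 1 to 4 and -4.82, -5.87 and -6.96 in knockouts 1, 2 and 4, with a blank cell in knockout 3, and the means did not differ beyond their spread (difference -0.01, exact two-sided permutation test, p = 0.971). Its transcript level does not check the knockout label. Knockout libraries 1 and 2 stood close to each other (SD across genes of their difference 0.12), as did knockout libraries 3 and 4 (0.13), while libraries of different pairs differed by 0.46 to 0.50 and controls from knockouts by 0.36 to 0.45. Values are therefore given for the pairs as well, and calls that were lost when the libraries of each knockout pair were averaged are named. The markers VIM and SPARC are the exception, since that setting is not given for them. Of the markers fixed for mesenchymal and osteosarcoma cells, 6 of 8 had a value in every library, and COL1A2 and THY1 were blank in 4 and 5 libraries. RUNX2 overlapped the controls in both knockout pairs (log2 difference 0.04). The other markers with a value in every library differed between libraries. VIM was 10.8 to 10.9 in the controls, 10.2 in knockouts 1 and 2 and 10.6 to 10.7 in knockouts 3 and 4 (log2 difference -0.43, limma adjusted p = 0.0425). SPARC was higher in the knockouts by 0.62 (limma adjusted p = 0.0294). COL1A1, CD44 and ENG lay below all controls in knockouts 1 and 2 and above them in 3 and 4. PTPRC, CD3E, HBB and CD74, which mark blood cells and professional antigen-presenting cells, were blank in all 8, and CIITA, the regulator of class II genes, was blank in 6. CD14, a monocyte marker, was -4.90 to -4.22 in the controls, blank in knockouts 1 and 2, and -2.67 and -2.94 in knockouts 3 and 4. EPCAM, an epithelial marker, was 2.55 and 2.76 in knockouts 1 and 2 and 1.83 and 1.94 in knockouts 3 and 4, below the controls (2.38 to 2.75) in that pair as the heavy chains were. CDH1, another epithelial marker, was blank in 6 libraries and -7.49 and -7.40 in controls 2 and 3. PECAM1, an endothelial marker, overlapped the controls in both knockout pairs. The part of these markers in the levels of the class I genes was not tested.

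The promoter windows of the genes are shown because they hold letters named for the interferon regulatory and NF-kappaB factors whose own transcripts are described below. Windows run from 250 bases before to 50 bases after the transcription start (RefSeq, GRCh38.p14), were present for 7 of the 9 genes, and are printed 5′ to 3′ on the strand of the gene. Capitals mark matches on either strand to the interferon-response type motifs (GAAA or GAA, any 2 bases, then GAAA), the kappaB consensus, the CCAAT box (CCAAT) and the core of the cyclic AMP response element (TGACG), which may overlap. The HLA-B window is chr6:31357130-31357429 (minus strand), that of TAP1 chr6:32853655-32853954 (minus), that of TAP2 chr6:32838690-32838989 (minus), that of TAPBP chr6:33314029-33314328 (minus) and that of B2M chr15:44711267-44711566 (plus).
HLA-B: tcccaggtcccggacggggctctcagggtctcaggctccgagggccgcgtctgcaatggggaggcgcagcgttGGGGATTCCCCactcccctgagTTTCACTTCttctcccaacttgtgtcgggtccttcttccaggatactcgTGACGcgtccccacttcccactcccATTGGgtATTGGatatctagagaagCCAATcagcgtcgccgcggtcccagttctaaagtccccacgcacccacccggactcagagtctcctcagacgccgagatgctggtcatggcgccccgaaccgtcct
TAP1: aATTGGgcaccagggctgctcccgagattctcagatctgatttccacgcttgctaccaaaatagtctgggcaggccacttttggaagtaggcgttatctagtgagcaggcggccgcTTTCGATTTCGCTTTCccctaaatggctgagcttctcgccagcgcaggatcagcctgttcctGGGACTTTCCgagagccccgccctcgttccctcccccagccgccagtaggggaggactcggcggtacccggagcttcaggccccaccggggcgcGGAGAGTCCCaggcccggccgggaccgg
TAP2: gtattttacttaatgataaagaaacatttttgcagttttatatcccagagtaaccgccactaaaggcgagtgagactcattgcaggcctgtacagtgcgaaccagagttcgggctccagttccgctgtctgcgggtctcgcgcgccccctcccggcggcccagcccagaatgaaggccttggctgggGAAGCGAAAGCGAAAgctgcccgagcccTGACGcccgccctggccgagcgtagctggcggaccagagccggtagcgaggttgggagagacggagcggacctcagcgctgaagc
TAPBP: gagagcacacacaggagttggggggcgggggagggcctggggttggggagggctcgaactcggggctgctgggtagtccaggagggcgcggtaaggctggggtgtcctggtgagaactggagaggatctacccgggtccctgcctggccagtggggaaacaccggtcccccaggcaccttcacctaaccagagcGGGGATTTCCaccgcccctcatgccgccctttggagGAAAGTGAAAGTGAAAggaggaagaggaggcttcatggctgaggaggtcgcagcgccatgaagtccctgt
B2M: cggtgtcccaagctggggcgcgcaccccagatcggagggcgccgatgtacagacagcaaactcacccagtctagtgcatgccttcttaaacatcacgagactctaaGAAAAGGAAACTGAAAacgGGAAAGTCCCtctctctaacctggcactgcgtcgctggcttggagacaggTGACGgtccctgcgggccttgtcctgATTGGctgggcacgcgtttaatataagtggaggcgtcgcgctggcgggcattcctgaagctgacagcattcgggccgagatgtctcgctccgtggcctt
Counting the first window of each of the 7 genes, all 7 held an interferon-response type match. The share was 10.6% among 35116 promoter windows of the same length, which include every window of a gene. TAP1 had a second window (chr6:32852712-32853011, minus), which held none of the motifs. The kappaB consensus was in 5 of the 7 (HLA-B, HLA-C, TAP1, TAPBP and B2M), against 5.91% of all windows, and absent as letters from the HLA-F and TAP2 windows. CCAAT was in 5 of 7 (34.6% of all windows) and TGACG in 4 of 7 (24.6%). Counted from the start site, with negative positions before it, the kappaB matches of HLA-B spanned -177 to -167 and its interferon-response match -155 to -147. In TAPBP they spanned -56 to -47 and -20 to -5, and in B2M -125 to -116 and -144 to -129. These are matches of letters, not measured binding.

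The heavy chains were examined next. HLA-B (chromosome 6, bases 31353875 to 31357179) and HLA-C (chromosome 6, bases 31268749 to 31272092) encode classical heavy chains that present peptides to CD8+ T cells. HLA-B was 5.89, 5.86, 5.42 and 5.78 on the log2 scale in controls 1 to 4 and 5.52, 5.53, 4.40 and 4.38 in knockouts 1 to 4. Knockouts 1 and 2 lay within the control range and knockouts 3 and 4 lay well below it. The control mean of 5.74 ± 0.22 and the knockout mean of 4.96 ± 0.66 (SD, n = 4 each) gave a log2 difference of -0.78 ± 0.29 (SE) that did not pass the limma test (adjusted p = 0.115). HLA-C was 5.48, 5.40, 5.08 and 5.31 in the controls and 5.14, 4.99, 4.31 and 4.33 in the knockouts. Knockout 1 lay within the control range, knockout 2 just below it and knockouts 3 and 4 further below. Its log2 difference was -0.62 ± 0.20 (SE; limma adjusted p = 0.0760). With the replicate number as a block, HLA-C passed the limma test (adjusted p = 0.0360) and HLA-B did not (adjusted p = 0.0616). That fit called 2 of the 7 genes, HLA-C and TAPBP, and 10.2% of all tested genes. With the set of replicates (1-2 or 3-4) as a batch, HLA-B (adjusted p = 0.0139) and HLA-C (0.00637) both passed the limma test. That fit called 25.2% of all tested genes.

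Against the same-numbered controls, the log2 difference of HLA-B was -0.35 in replicates 1-2 and -1.21 in replicates 3-4, and that of HLA-C was -0.37 and -0.87. Both genes were lower than the same-numbered control in 4 of 4 pairs. No share over all tested genes was computed for such counts, and whether the numbers pair single libraries is unknown. When the 2 libraries of a knockout pair were averaged, the limma adjusted p was 0.204 for HLA-B and 0.169 for HLA-C. These genes share long stretches of near-identical sequence with each other and with further class I genes and pseudogenes, and 143B carries its own alleles. How reads were assigned among them is not given in the sources used here, so the split of signal between HLA-B and HLA-C is uncertain.

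HLA-E (chromosome 6, bases 30489509 to 30494194) presents leader peptides of other class I chains to inhibitory receptors of natural killer cells. It was 4.59, 4.59, 4.52 and 4.65 in the controls and 4.51, 4.50, 4.22 and 4.20 in the knockouts. The groups did not overlap, but knockout 1 lay just under control 3, and knockouts 3 and 4 carried most of the difference. The log2 difference was -0.23 ± 0.09 (SE; limma adjusted p = 0.134), with -0.08 in replicates 1-2 and -0.38 in replicates 3-4. HLA-F (chromosome 6, bases 29723434 to 29738532), a class I chain found on activated cells, was 0.32, 0.26, -0.22 and 0.03 in the controls and 0.30, 0.35, -0.62 and -0.63 in the knockouts. Knockout 1 lay within the control range, knockout 2 just above it and knockouts 3 and 4 below it, and the difference of means, -0.24, was within the spread (exact two-sided permutation test, p = 0.400). Over the 8 libraries, Pearson's r was 0.99 between HLA-B and HLA-C and 0.98 between HLA-B and HLA-E, a description that rests mostly on the low values of knockouts 3 and 4.

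B2M (chromosome 15, bases 44711517 to 44718145) encodes beta-2 microglobulin, the light chain that every class I heavy chain needs to reach the surface. It was 6.41, 6.37, 6.20 and 6.31 in the controls and 6.50, 6.56, 6.61 and 6.52 in the knockouts. All 4 knockouts lay above all 4 controls, and the means of knockouts 1-2 and 3-4 were 0.21 and 0.24 above the control mean. Against the same-numbered controls the difference was 0.14 in replicates 1-2 and 0.31 in replicates 3-4. The log2 difference was 0.22 ± 0.07 (SE), a 1.17-fold higher mean, and missed the limma threshold (adjusted p = 0.0621). B2M passed when only genes with a mean of at least 3 were tested (limma adjusted p = 0.0462) and in a fit that added the set of replicates (1-2 or 3-4) as a batch (0.0343), and did not with knockout pairs averaged (0.237). HLA-E, TAPBP and B2M were the 3 of the 7 tested genes whose groups did not overlap, against 22.9% of all tested genes (12.5% higher, 10.4% lower).

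The heavy chains were also set against B2M within each library. The log2 value of HLA-B minus that of B2M was -0.52, -0.51, -0.78 and -0.52 in controls 1 to 4 and -0.97, -1.03, -2.20 and -2.15 in knockouts 1 to 4. For HLA-C this difference was between -1.13 and -0.93 in the controls and between -2.29 and -1.36 in the knockouts, and for HLA-E between -1.82 and -1.66 and between -2.39 and -1.98. In all 3 the knockout libraries lay below every control. B2M itself was above every control in all 4 knockouts, which lowers each of these differences there. The values of HLA-B and HLA-C themselves overlapped between the groups. No share over all genes was computed for such differences. These differences were chosen after the values were seen and carry no test, and since the table does not state whether values are scaled by gene length, only their change between libraries is read, not their size.

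**Figure D2:**
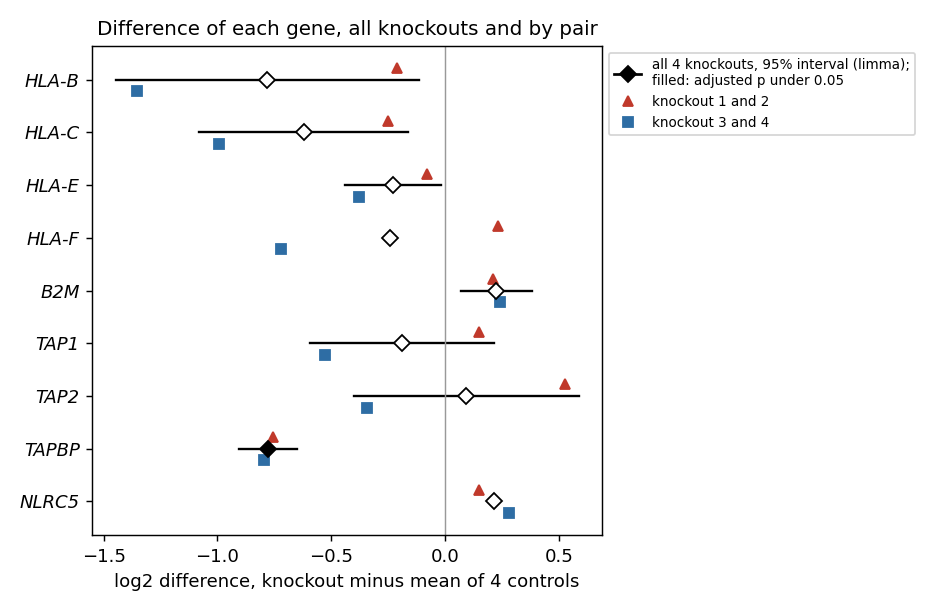
Log2 difference from the mean of the 4 controls (horizontal axis) for each gene, for all 4 knockouts (diamonds, with the limma 95% interval for the 7 tested genes), knockouts 1 and 2 (triangles) and knockouts 3 and 4 (squares). TAPBP and B2M show like values in both pairs, HLA-B, HLA-C and HLA-E are further below 0 in knockouts 3 and 4, and HLA-F, TAP1 and TAP2 have the pairs on opposite sides of 0.

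Of the peptide-loading genes, TAPBP (chromosome 6, bases 33299694 to 33314078) showed the clearest change. It was 3.18, 3.14, 3.19 and 3.15 in the controls and 2.44, 2.37, 2.34 and 2.39 in the knockouts. The groups were far apart relative to their spread, and no library stood apart from its group. The control mean of 3.16 ± 0.02 fell to a knockout mean of 2.39 ± 0.04 (SD, n = 4 each), and the log2 difference was -0.78 ± 0.06 (SE; limma adjusted p = 0.000790). The fall was -0.75 in replicates 1-2 and -0.80 in replicates 3-4, and TAPBP passed the limma test with the libraries of a knockout pair averaged (adjusted p = 0.0235), a setting that called 1.2% of all tested genes. Tapasin is also known for favouring high-affinity peptides during loading. In RefSeq the gene overlaps RGL2, which fell by 0.20 (limma adjusted p = 0.0488, 0.105 with the replicate block and 0.224 with pairs averaged). How reads in the shared bases were assigned is not stated, so the part of each gene in them cannot be told apart.

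TAP1 and TAP2 (chromosome 6, bases 32845209 to 32853704 and 32821831 to 32838739) encode the transporter's subunits and lie 6.47 kb apart, with PSMB8 between them. TAP1 was 2.92, 3.04, 2.89 and 2.86 in the controls and 3.16, 2.99, 2.41 and 2.38 in the knockouts. Knockout 1 lay above every control and knockouts 3 and 4 below every one. TAP2 was 2.74, 2.82, 2.87 and 2.80 in the controls and 3.35, 3.32, 2.46 and 2.46 in the knockouts, so that knockouts 1 and 2 were above and knockouts 3 and 4 below all controls. Such a split on both sides of the controls occurred in 7.81% of all tested genes. Over all libraries the log2 differences were -0.19 ± 0.18 for TAP1 and 0.09 ± 0.22 for TAP2 (SE; limma adjusted p = 0.514 and 0.817), with 95% intervals of -0.59 to 0.21 and -0.40 to 0.58. The difference from the same-numbered controls was 0.10 in replicates 1-2 and -0.48 in replicates 3-4 for TAP1, and 0.55 and -0.37 for TAP2. A mean over the 4 knockouts therefore describes neither pair of TAP2 values.

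NLRC5 (chromosome 16, bases 56989557 to 57083520) encodes the class I transactivator, which binds the RFX complex at class I promoters. It was -1.93, -1.50, -0.82 and -1.22 in the controls and -1.13, -1.31, -0.89 and -1.28 in the knockouts. The knockouts lay inside the control range, whose spread was wide, and the difference of means was 0.21 (exact two-sided permutation test, p = 0.457). Leaving out control 1 changed this to 0.03.

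The other genes of the pathway were taken by role. Of 38 such genes (8 in peptide loading, 10 of the proteasome and 20 regulators), 32 were tested and 5 passed the limma test, 2 higher and 3 lower, or 15.6% against 13.1% of all tested genes, with a median log2 difference of -0.05 against 0.01 over all tested genes. None of the 6 tested loading genes passed the limma test, at an adjusted p under 0.05, and 1 of them (ERAP1) had an unadjusted p under 0.05. ERAP1, which trims peptides in the endoplasmic reticulum, was 3.34, 3.31, 3.05 and 3.31 in the controls and 3.08, 3.15, 2.51 and 2.54 in the knockouts. Knockouts 3 and 4 were the low libraries, as for HLA-B and HLA-C, and the log2 difference was -0.43 ± 0.16 (SE; limma adjusted p = 0.113). ERAP1 passed the limma test with the set of replicates as a batch (adjusted p = 0.0188) and did not with pairs averaged (0.220). The chaperones CALR, CANX and PDIA3, shared with other secretory proteins, differed by -0.12, -0.10 and -0.11 (limma adjusted p of 0.282, 0.741 and 0.538).

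Most proteasome genes were high in knockouts 1 and 2, and 2 of the 10, PSMB8 and PSME1, showed the full split of TAP2. In knockouts 1 and 2, 8 of the 10 lay above every control, against 32.5% of all tested genes, and in knockouts 3 and 4, 1 lay above and 2 below, against 30.2% and 28.8%. PSMB8, an immunoproteasome subunit, was 3.98, 4.02, 4.07 and 3.94 in the controls and 4.51, 4.30, 3.48 and 3.44 in the knockouts, with no overlap between either knockout pair and the controls. PSMB9, the immunoproteasome subunit whose start lies 488 bases from that of TAP1, was 1.87, 2.05, 2.21 and 2.28 in the controls and 2.75, 2.55, 1.73 and 1.96 in the knockouts. Neither passed the limma test over all libraries (log2 differences -0.07 and 0.15, adjusted p = 0.872 and 0.702). PSMB10, the third immunoproteasome subunit, encoded on chromosome 16, was 2.90, 2.86, 3.21 and 2.87 in the controls and 3.67, 3.64, 3.36 and 3.16 in the knockouts. It rose by 0.50 ± 0.13 (SE; limma adjusted p = 0.0436), although knockout 4 lay under control 3, and it did not pass with the replicate block (adjusted p = 0.0685) or with pairs averaged (0.145).

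**Figure D3:**
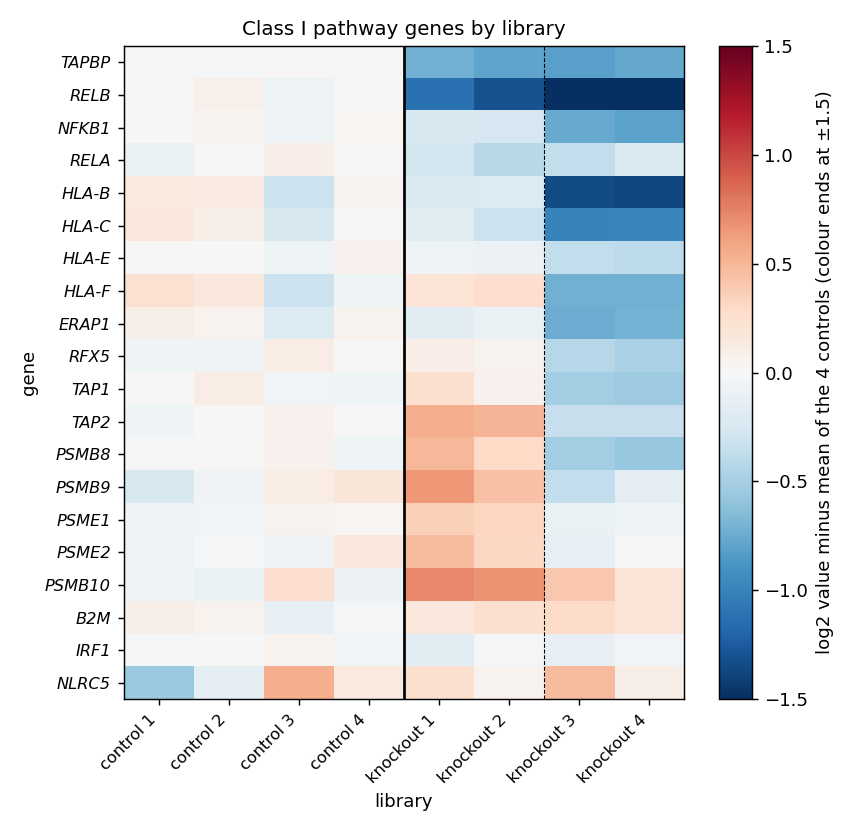
Log2 value minus the mean of the 4 controls (colour, ending at ±1.5) for 20 pathway genes (rows) in each library (columns), with a dashed line between the knockout pairs. TAPBP and RELB are low in all 4 knockouts, TAP2, PSMB8 and PSMB9 are above the control mean in knockouts 1 and 2 and below it in 3 and 4, and HLA-B and HLA-C are lowest in knockouts 3 and 4.

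Among the regulators, 4 of 16 tested genes passed the limma test (25.0%, against 13.1% of all tested genes), the NF-kappaB subunit genes RELB, RELA and NFKB1 with lower values in every knockout and EZH2 with higher ones. RELB, a subunit of the non-canonical dimer, was 3.29, 3.37, 3.21 and 3.29 in the controls and 2.17, 1.98, 1.24 and 1.18 in the knockouts. It fell by 1.65 ± 0.22 log2 units (SE; limma adjusted p = 0.00427), with knockouts 3 and 4 the lowest. RELA, the main activating subunit, was 3.59, 3.70, 3.79 and 3.68 in the controls and 3.42, 3.27, 3.32 and 3.48 in the knockouts and fell by 0.32 ± 0.07 (SE; limma adjusted p = 0.0270). NFKB1, the p105/p50 gene, fell by 0.51 ± 0.14 (SE; limma adjusted p = 0.0462), by 0.26 in replicates 1-2 and 0.76 in replicates 3-4 against the same-numbered controls. With the replicate block RELB still passed the limma test (adjusted p = 0.0125), and RELA (0.0670) and NFKB1 (0.0545) did not, so that 2 of the 32 pathway genes were called in place of 5. EZH2, a histone methyltransferase known to silence class I genes in some tumours, was 2.01, 2.08, 1.86 and 2.05 in the controls and 2.34, 2.38, 2.25 and 2.37 in the knockouts. It rose by 0.33 ± 0.07 (SE; limma adjusted p = 0.0200, and 0.0350 with the block). With the libraries of each knockout pair averaged, RELB passed the limma test (adjusted p = 0.0270), and RELA (0.131), NFKB1 (0.131) and EZH2 (0.134) did not.

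The factors that act with NLRC5 or after interferon gamma included several that did not pass the test. RFX5, of the RFX complex, differed by -0.19 ± 0.14 (SE; limma adjusted p = 0.420), with knockouts 3 and 4 (4.07 and 4.02) below the controls (4.44 to 4.61) and knockouts 1 and 2 (4.60 and 4.56) among them. IRF1, the interferon-induced activator of class I and TAP1 promoters, differed by -0.09 ± 0.06 (SE; limma adjusted p = 0.395), with a 95% interval of -0.23 to 0.05. IFNGR2, an interferon gamma receptor chain, was lower in all 4 knockouts (3.60, 3.64, 4.27 and 4.22 against 4.30 to 4.57 in the controls) and did not pass the limma test (adjusted p = 0.0710). Its low libraries were knockouts 1 and 2, opposite to the heavy chains.

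**Figure D4:**
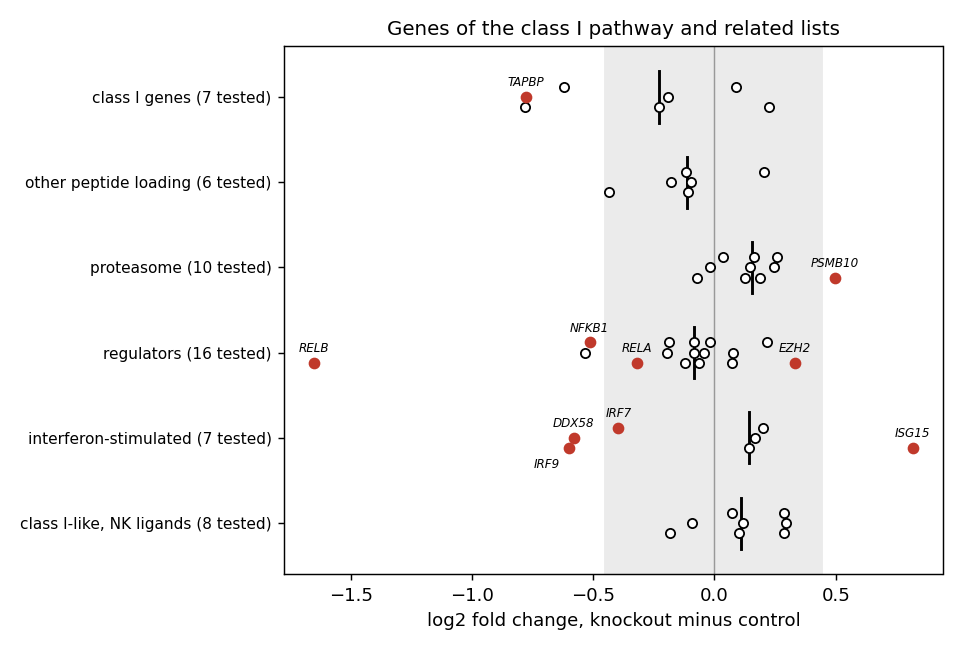
Log2 fold change, knockout minus control (horizontal axis), of each tested gene in the class I genes and 5 related lists; red, named points passed the limma test, vertical ticks are list medians, and the shaded band spans the 5th to 95th percentile of all tested genes (-0.45 to 0.44). Of the genes that passed, TAPBP, RELB, NFKB1, IRF9 and DDX58 lie below the band and PSMB10 and ISG15 above it.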

How the data were processed

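Total RNA of 8 libraries (4 control, 4 knockout) was isolated with TRIzol and made into libraries with a stranded total RNA kit, per the labels' protocols. The authors deposited 1 table of values per gene symbol and library, read here as log2. How they were made is given only by the names of tools below. The log scale is not stated and was inferred, since the values include negative numbers. That the base is that of log2 was assumed and could not be checked. Once raised as powers the values sum to nearly the same total in each library, but like distributions would give this for any base. The fold values rest on the assumed base. The distributions of the deposited values are the same in every library, as after quantile normalization, which removes any shift shared by all genes. The unit before the log and the depth are unknown, so no counting error is given and levels are not compared between genes. The submitters' processing notes name bcl2fastq, Partek 7.0 and GRCh38; the aligner, the counting and its use of strand are not given in the sources used here.

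Blank cells were treated as missing. Genes with a value in all 8 libraries (13943 of 54174) and a mean of at least 1 (9016) were fitted with limma 3.58.1 in R 4.3.3, with Benjamini-Hochberg adjustment over all of them and a threshold of 0.05. HLA-F, NLRC5 and NELL1, outside the fit, were compared with an exact two-sided permutation test, whose smallest p for 4 against 4 is 0.0286. The fit was tested on simulated data. The simulated noise was independent in each library, so that test did not cover the closeness of libraries within the knockout pairs. Deviations of same-numbered libraries from their group means correlated at 0.20 to 0.29 in all 4 pairs. Libraries of other numbers in the same set (1-2 or 3-4) correlated about as much (0.11 to 0.31). Libraries of different sets correlated at -0.30 to -0.15. Since the knockouts split into 1-2 and 3-4, their deviations mostly follow that split, and these correlations largely repeat it. By closeness the controls did not form the same sets. Control 4 stood nearer to controls 1 and 2 (SD across genes of the difference 0.15 and 0.13) than to control 3 (0.19). The correlations cannot tell whether the numbers pair single libraries. The main fit held neither a replicate block nor a set term.

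The genes and the lists were chosen with earlier results of these data known. The naming rule covered the 9 genes, NELL1, up to 4 called genes of each list with the largest change, and PSMB8, PSMB9, PSMB10, RFX5, IRF1, RELA and RELB; some items it covers are not reported here. ERAP1, CALR, CANX, PDIA3, IFNGR2, PSME1, the cell markers and RGL2 were named after their values were seen. Alternatives covered the replicate block, filters, scaling, the pseudocount, the variance model, a batch term, pairs averaged or alone, and each library left out.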

Additional observations from a re-analysis of the deposited data

How the results depend on the processing

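The fall of TAPBP passed the limma test in every setting in which it was tested, with log2 differences between -0.80 and -0.68 and adjusted p between 0.000125 and 0.0235; with a mean of at least 3 it was not tested. Over all tested genes, 1183 calls became 729 with a mean of at least 3, 2274 with a batch term for replicates 1-2 against 3-4, 108 with knockout pairs averaged, 5380 when only replicates 1-2 were used, 2987 for replicates 3-4, and 391 to 1353 with 1 library left out, 444, 431 and 391 without control 1, 2 or 4. With a mean of at least 3, B2M was the class I gene called. Of the 7 tested class I genes, 2 were called with the replicate block, 4 with the batch term, 4 for replicates 1-2 only, 7 for replicates 3-4 only, and 1 to 2 with 1 library left out (HLA-C joined without knockout 1, adjusted p = 0.0380). The other pathway genes gave 2 calls with the block, 3 with a mean of at least 3, 10 with the batch term, 1 with pairs averaged, 21 for replicates 1-2 only, 11 for replicates 3-4 only, and 1 to 4 with 1 library left out. Directions reversed for TAP1 (0.10) and HLA-F (0.038) with replicates 1-2 only, for TAP2 (-0.37) and NLRC5 (-0.065) with replicates 3-4 only, and for TAP2 with 1 library left out (-0.059 to 0.24, below 0 without knockout 1 or 2). The cause of these changes was not tested. Beside HLA-C, PSMB10, RELA and NFKB1, the replicate block changed no other call among the class I and pathway genes. The scale of the low values of HLA-F and NLRC5 gives no depth, and no value was had for them with a batch term, a further quantile normalization, a variance trend or a mean of at least 3.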

Other observations

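Genes that respond to interferon changed in both directions. Of 20 listed, 7 were tested and 4 passed the limma test (13.1% of all tested genes did). ISG15, a ubiquitin-like protein, was 3.33, 3.32, 2.91 and 3.34 on the log2 scale in the controls and 3.91, 3.84, 4.29 and 4.12 in the knockouts, and rose by 0.82 ± 0.13 (SE; limma adjusted p = 0.00839). IRF9, a DNA-binding factor of the type I interferon response, was 2.24, 2.34, 2.03 and 2.13 in the controls and 1.40, 1.66, 1.65 and 1.62 in the knockouts, and fell by 0.60 ± 0.09 (SE; limma adjusted p = 0.00676). DDX58, the RNA sensor RIG-I, fell by 0.58 (limma adjusted p = 0.0382, and 0.0642 with the replicate block), and IRF7, a driver of type I interferon genes, fell by 0.40 (limma adjusted p = 0.0159). Of the 7 tested, these 4 had groups that did not overlap (22.9% of all tested genes did not), and the others overlapped. The 4 were picked by a test on the same values, so this is no separate support. With the libraries of each knockout pair averaged, none of the 4 passed the limma test (adjusted p = 0.0662 for ISG15, 0.0571 for IRF9, 0.104 for IRF7 and 0.128 for DDX58; all 4 had an unadjusted p under 0.05).

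Among 14 class I-like genes and ligands of natural killer or T cell receptors, 8 were tested and none passed the limma test at an adjusted p under 0.05. In knockouts 1 and 2, 8 of the 13 with a value in every library lay above all controls (32.5% of all tested genes did). Some of the 13 were below the mean needed for the test, and no share was computed for such genes. CD274, which encodes PD-L1, lay below the mean needed for the test. It was -0.22, -0.37, 0.18 and -0.25 in the controls and 1.65, 1.54, 0.41 and 0.44 in the knockouts, higher in all 4 knockouts by a mean of 1.18 (p = 0.0286 in an exact two-sided permutation test, the lowest possible with 4 against 4). In limma without the filter its adjusted p was 0.0620. CD274 was chosen after its values were seen.

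Of the 13 tested genes within 100 kb of TAPBP, a window chosen after the data were seen, 9 had a log2 difference below 0 (4392 of all 9016 tested genes did) and 3 were called lower by limma (6.1% of all tested genes were): ZBTB22 (-0.58, adjusted p = 0.0122), RING1 (-0.30, adjusted p = 0.0326) and RGL2 (-0.20, adjusted p = 0.0488). With the replicate block ZBTB22 kept its call (adjusted p = 0.0348), and RING1 (0.0723) and RGL2 (0.105) did not. With pairs averaged none of the 3 passed the limma test (adjusted p = 0.0731, 0.131 and 0.224 for ZBTB22, RING1 and RGL2, each with an unadjusted p under 0.05).

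The genes outside the lists most like the mean of the 7 tested class I genes over the 8 libraries were RPS20, SEC31A, NOA1, UGDH and ACP6, with Pearson's r between 0.994 and 0.998. All 5 were lowest in knockouts 3 and 4, which follows from this choice, since the class I mean was itself lowest there. None of the 5 passed the limma test (adjusted p between 0.142 and 0.185). The class II genes, with 4 of 10 valued in every library, were all below the mean needed for the test. Of the 4, 3 had knockouts 3 and 4 below all controls (28.8% of all tested genes did). That share does not cover genes below the needed mean, for which none was computed.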
